A study of Macaca mulatta with 24 samples.

Results

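Fatty acid oxidation, ketone use and the peroxisome were followed here through 37 gene symbols, covering the activation of fatty acids, the carnitine shuttle, the mitochondrial and peroxisomal oxidation enzymes, electron transfer, ketone bodies and the regulators PPARA and PPARGC1A. A symbol was kept where a probe carried it in the deposited normalized ileum table, and the probe with the brightest mean signal over all arrays stood for the gene. On this rule 30 of the 37 symbols had a probe and all 30 passed the filter on dim probes, in a table that names 16094 symbols. Tests ran over 36108 of 43603 probes. ACSL5, ACADL, ACADVL, ECHS1, BDH1, ACOX2 and SCP2 were not analysed here.

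The tissue was whole ileum wall from young-adult male Rhesus macaques, 1 array per animal, collected after a single uniform cobalt-60 gamma exposure of the whole body (total body irradiation, TBI). The groups were 4 sham-irradiated controls, 4 animals on day 4 and 4 on day 7 after 6.7 Gy, 4 on day 4 and 4 on day 7 after 7.4 Gy, and 2 on day 12 at each dose. Each animal gave tissue at a single time. The 4 controls, all labelled as day 4, served every comparison with unirradiated tissue, so those comparisons share their baseline and days 7 and 12 had no control of the same day.

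Fatty acids are first bound to coenzyme A by the ACSL synthetases and carried into the mitochondrion on carnitine. There a repeating cycle of dehydrogenases, hydratases and thiolases cuts them to acetyl-CoA, auxiliary isomerases and a reductase deal with double bonds, and the electron transfer flavoprotein passes electrons to the respiratory chain. Peroxisomes shorten very long and branched chains and break down the peroxide this makes with catalase. PPARA, a nuclear receptor for fatty acids, with its coactivator PPARGC1A, switches on many of these genes, and the absorptive cells of the small intestine are among the tissues where the pathway is active.

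Levels are log2 signal relative to the 75th percentile of the same array, so a level of 0 equals that percentile, and levels of different probes are not comparable. Differences are log2 differences of group means with the standard error (SE) from limma fitted to all 7 groups, and a gene passed the test at a Benjamini-Hochberg adjusted p below 0.05 over all probes tested. Calls and counts of members are by this reported probe, and values of further probes are named as such. No spot was saturated. The probe of ACSL1 was well above background on 19 of 24 arrays and that of ACOX3 on 23, and the other 28 members were on all 24. The enterocyte markers FABP1 and VIL1 were well above background on all 24 arrays. All control arrays lay at the first of the 4 positions on a slide and all arrays of day 12 at the fourth, so position and group cannot be told apart for the comparisons of day 7 or day 12 with the controls.

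The mean level of the members on day 4 was below every control in 7 of 8 animals, and it lay around or above the control mean on day 7. The mean of the 30 members, set relative to the control mean, ran from -0.15 to 0.15 in the 4 controls. It ran from -0.62 to -0.10, with a median of -0.27, in the 8 animals of day 4. On day 7 it ran from -0.03 to 0.22 with a median of 0.16 in 8 animals, and on day 12 from 0.02 to 0.13 in 4 animals. The highest animal of day 4 lay below the lowest of day 7, and 1 animal of day 4 (6.7-Gy TBI, replicate 3, -0.10) lay within the range of the controls. In whole-wall RNA, fewer cells of a type and less RNA per cell cannot be told apart.

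**Figure D1:**
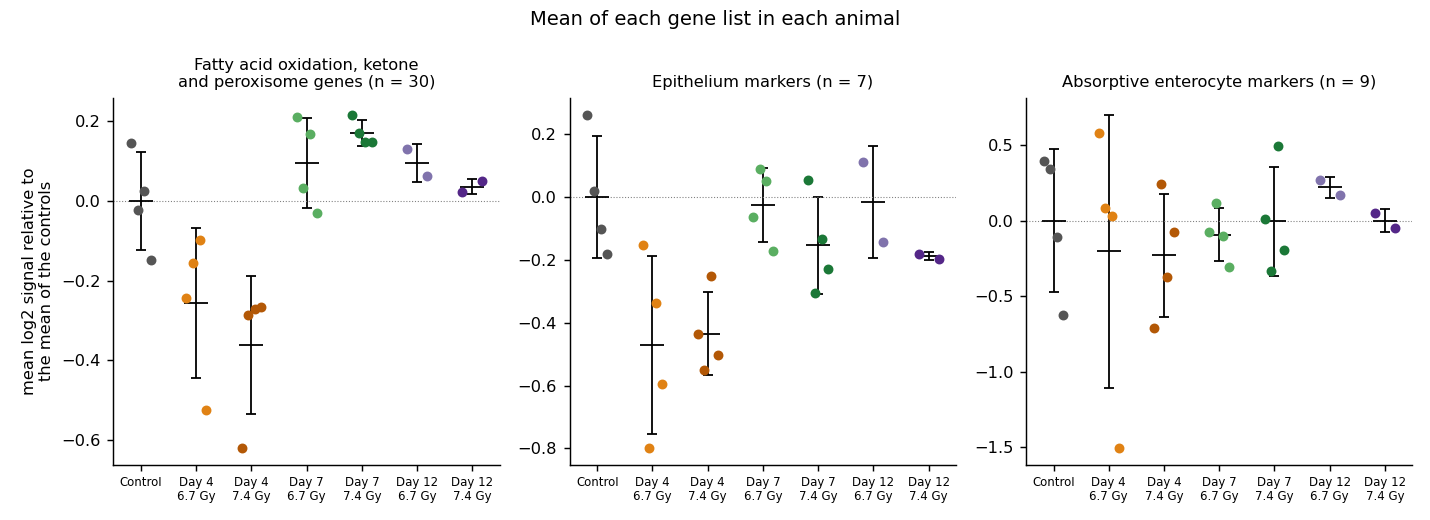
Mean log2 level of the 30 members in each animal relative to the control mean, by group, with the epithelial and enterocyte marker lists drawn the same way on their own scales; each point is 1 animal, bars are group means and whiskers SD. The members sit between -0.62 and -0.10 on day 4 and between -0.03 and 0.22 on day 7, and the group means of the epithelial markers are also lowest on day 4.

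On day 4, 6 members passed the test as lower in the mean of both doses and none as higher: ACSL3, CRAT, CROT, ECI1, DECR1 and CAT. They were 1.35-fold (ACSL3) to 1.72-fold (CROT) lower. Of all probes tested, 4.66% passed as lower in the same comparison. By direction alone 26 of 30 members were lower, against 60.5% of all probes, and the median difference of the members was -0.36 against -0.09 for all probes. In 5 of the 6, all but ACSL3, no animal of day 4 reached the lowest control, which held for 2.99% of all probes. By dose, 3 members were lower after 6.7 Gy (CRAT, CROT and ECI1, against 1.23% of probes) and 3 after 7.4 Gy (CRAT, ECI2 and DECR1, against 3.1% of probes).

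Of the 5 members of the carnitine shuttle, CRAT and CROT passed as lower on day 4, and the other 3 were higher without passing. CRAT, carnitine acetyltransferase, which moves acetyl groups between coenzyme A and carnitine, had levels of 5.13, 5.08, 4.84 and 4.76 in the controls, 4.52, 4.55, 4.48 and 4.04 on day 4 after 6.7 Gy and 4.13, 4.65, 4.47 and 4.52 on day 4 after 7.4 Gy. Its levels on day 7 were 4.86, 4.84, 4.80 and 4.85 after 6.7 Gy and 5.17, 4.79, 5.12 and 4.82 after 7.4 Gy, and on day 12 they were 5.31, 5.06, 4.96 and 4.81. Every animal of day 4 lay below every control and below every later animal. The difference from the controls on day 4 was -0.56 ± 0.14 (SE, adjusted p = 0.0386) after 6.7 Gy, -0.51 ± 0.14 (adjusted p = 0.0332) after 7.4 Gy and -0.53 ± 0.12 (adjusted p = 0.0111) in the mean of both.

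CROT, the peroxisomal carnitine octanoyltransferase that readies shortened chains for export to the mitochondrion, stood at -1.18, -0.69, -0.96 and -1.13 in the controls, -1.57, -1.54, -1.61 and -2.83 on day 4 after 6.7 Gy and -2.01, -1.50, -1.67 and -1.45 on day 4 after 7.4 Gy. On day 7 its levels were -0.82, -0.99, -0.69 and -0.91 after 6.7 Gy and -0.73, -0.91, -0.61 and -0.90 after 7.4 Gy, and on day 12 -1.06, -0.91, -1.08 and -1.24. The groups of day 4 and the controls did not overlap, with replicate 4 of 6.7 Gy far below the rest. The difference from the controls was -0.78 ± 0.19 (adjusted p = 0.0154) in the mean of both doses and -0.90 ± 0.22 (adjusted p = 0.0336) after 6.7 Gy. Without replicate 4 the latter was -0.58 (adjusted p = 0.0492).

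Other steps of the shuttle did not pass. CPT1A, which forms acylcarnitines at the outer mitochondrial membrane, had levels of -0.82 to 0.25 (median -0.36) in 4 controls and -0.24 to 0.52 (median 0.03) in 8 animals of day 4, with a difference of 0.40 and a 95% interval of -0.05 to 0.86. Its inner-membrane partner CPT2 differed by 0.13 (interval -0.24 to 0.51) and the acylcarnitine carrier SLC25A20 by 0.24 (interval -0.05 to 0.52). Among the 3 activating synthetases, ACSL3, which sits on the endoplasmic reticulum and lipid droplets, fell by 0.44 ± 0.12 (adjusted p = 0.0303). Its levels were 0.74, 0.78, 0.67 and 0.30 in the controls, 0.22, -0.04, 0.29 and 0.08 on day 4 after 6.7 Gy and 0.08, 0.48, 0.32 and 0.06 after 7.4 Gy, so that 1 control lay within the range of day 4.

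All 7 mitochondrial spiral and auxiliary enzymes measured were lower on day 4, by 0.08 (HADHA) to 0.69 (ECI2), and 2 passed the test. ECI1, an isomerase that shifts double bonds so that unsaturated chains can be oxidized, was at 4.11, 4.09, 4.18 and 4.17 in the controls, 3.50, 3.44, 3.78 and 2.95 on day 4 after 6.7 Gy and 3.18, 3.73, 3.72 and 3.81 after 7.4 Gy. It fell by 0.62 ± 0.15 (adjusted p = 0.0133) in the mean of both doses and by 0.72 ± 0.17 (adjusted p = 0.0291) after 6.7 Gy, with no overlap. The 4 controls lay close together. On day 7 its levels were 4.37, 3.81, 4.00 and 4.08 after 6.7 Gy and 4.32, 4.44, 4.12 and 4.03 after 7.4 Gy, and on day 12 they were 4.28, 4.01, 4.39 and 4.35, around the control level.

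DECR1, the dienoyl-CoA reductase needed for polyunsaturated chains, was at 3.52, 3.65, 3.29 and 3.56 in the controls, 3.12, 2.96, 3.23 and 2.79 on day 4 after 6.7 Gy and 2.53, 2.99, 3.12 and 2.97 after 7.4 Gy. It fell by 0.54 ± 0.13 (adjusted p = 0.0171) in the mean of both doses and by 0.60 ± 0.15 (adjusted p = 0.0255) after 7.4 Gy, again without overlap. On day 7 it was at 3.89, 3.51, 3.94 and 3.50 after 6.7 Gy and 3.58, 3.88, 3.78 and 3.39 after 7.4 Gy, and on day 12 at 3.60, 3.61, 3.54 and 3.22. ECI2, a second such isomerase found in mitochondria and peroxisomes, was at 3.03, 2.67, 2.29 and 2.19 in the controls, 2.52, 2.24, 2.44 and 1.45 on day 4 after 6.7 Gy and 1.33, 1.06, 2.01 and 1.78 after 7.4 Gy. After 7.4 Gy it was 2.01-fold lower (-1.004 ± 0.255, adjusted p = 0.0250), the only member at least 2-fold changed with a passed test against the controls. After 6.7 Gy its levels overlapped those of the controls, and the mean of both doses did not pass (-0.69 ± 0.22, adjusted p = 0.0525). Its day 7 levels were 2.84, 2.31, 2.96 and 2.35 after 6.7 Gy and 2.41, 2.39, 2.74 and 2.42 after 7.4 Gy, and those of day 12 were 2.51, 2.30, 1.70 and 2.41.

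None of the dehydrogenase, electron transfer or ketone genes passed on day 4 by its reported probe. The dehydrogenases ACADS and ACADM differed by -0.27 and -0.47, the electron transfer genes ETFA, ETFB and ETFDH by -0.43 to -0.14, and the ketone genes ACAT1 and OXCT1 by -0.04 and -0.43. Among the 6 peroxisome genes CAT, catalase, passed by its reported probe. Its levels were 3.85, 3.27, 3.14 and 3.12 in the controls, 2.71, 2.72, 2.99 and 2.04 on day 4 after 6.7 Gy and 2.27, 2.53, 2.68 and 2.62 after 7.4 Gy. It was 1.71-fold lower (-0.77 ± 0.22, adjusted p = 0.0330), with all 8 animals of day 4 below all 4 controls. On day 7 CAT was at 3.38, 3.32, 3.11 and 2.75 after 6.7 Gy and 4.20, 4.19, 3.33 and 3.50 after 7.4 Gy, and on day 12 at 3.97, 2.93, 3.05 and 3.09. PEX11A, which drives peroxisome division, had the most negative difference of any member (-0.83 ± 0.32) but a wide spread on day 4, from -1.59 to 0.44, and did not pass (adjusted p = 0.0961). HSD17B4, the multifunctional peroxisomal enzyme, differed by 0.18 (interval -0.20 to 0.55).

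**Figure D2:**
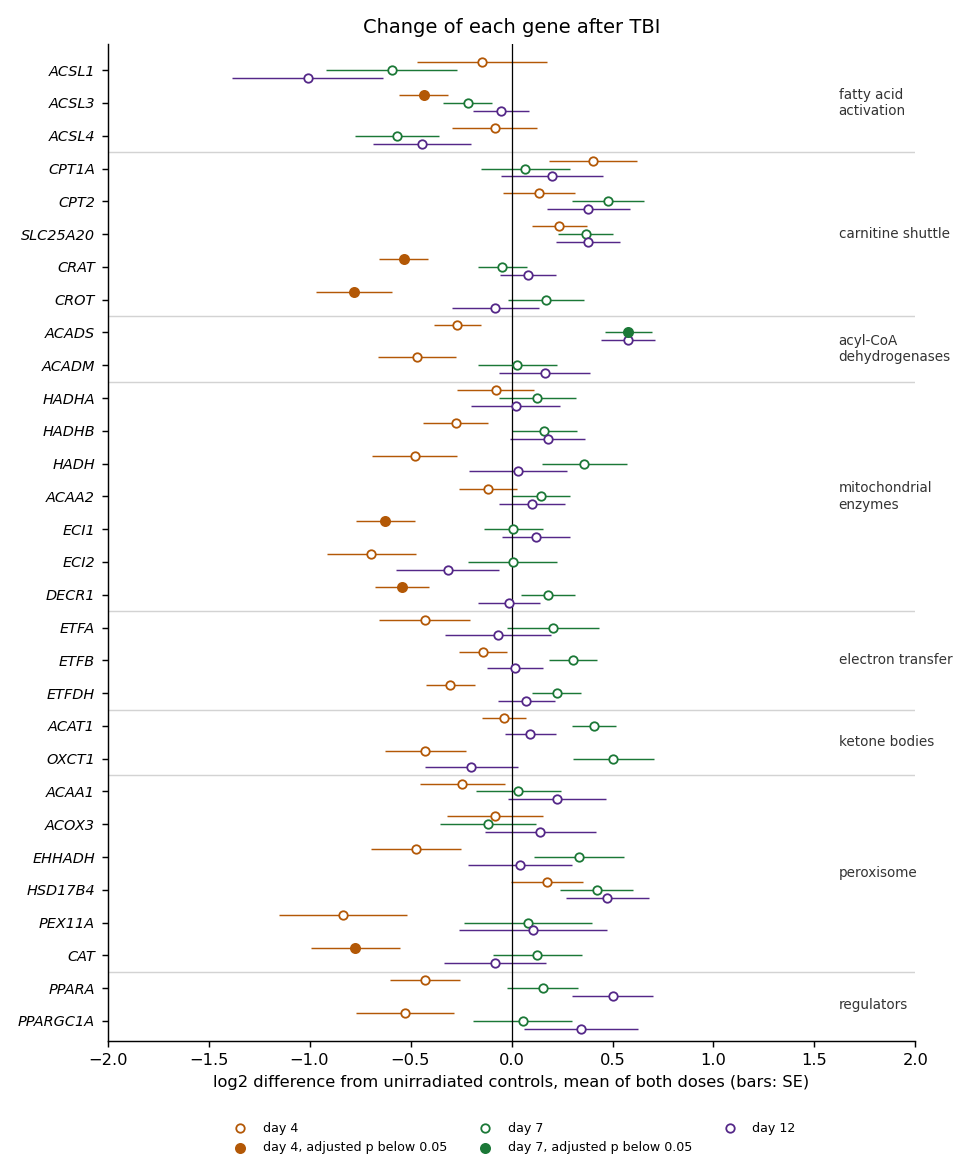
Log2 difference from the 4 controls for each of the 30 members, grouped by role, on days 4, 7 and 12 in the mean of both doses; lines are 1 SE to each side and filled points passed the test. On day 4, 26 of 30 points lie left of 0 with 6 past the test, and on day 7, 25 of 30 lie right of 0 with 1 past the test.

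The regulators did not pass against the controls on any day by their reported probes. PPARA stood at -1.06, -0.99, -0.87 and -1.42 in the controls, -1.24, -0.997, -1.01 and -1.96 on day 4 after 6.7 Gy and -2.13, -1.42, -1.76 and -1.57 after 7.4 Gy, a difference of -0.43 ± 0.17 (adjusted p = 0.118). On day 7 it was at -0.57, -1.09, -0.65 and -0.91 after 6.7 Gy and -1.10, -0.92, -0.99 and -1.18 after 7.4 Gy, and on day 12 at -0.37, -0.79, -0.74 and -0.43. The 4 animals of day 12 all lay above all 4 controls (0.50 in the mean of both doses), though not past the test. Such a separation on day 12 held for 2 of 30 members, against 3.07% of all probes.

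PPARGC1A was at -0.11, -0.05, 0.54 and 0.14 in the controls, -0.05, -0.19, 0.03 and -1.76 on day 4 after 6.7 Gy and -0.54, -0.08, -0.24 and -0.33 after 7.4 Gy. Its difference on day 4, -0.53 ± 0.24 (adjusted p = 0.167), leaned on replicate 4 of 6.7 Gy and was -0.32 without it, and with array position as a covariate it turned to 0.029. Its dimmer probe passed as lower on day 4. Its day 7 levels were 0.48, 0.14, 0.00 and 0.03 after 6.7 Gy and 0.25, -0.22, 0.46 and 0.34 after 7.4 Gy, and those of day 12 were 0.60, 0.46, 0.51 and 0.33.

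The direction on day 4 held within slides, but the calls depended on the fit. In the 4 pairs of a day 4 and a control array on the same slide, the members' median difference ran from -0.64 to -0.10, and 11 of 30 genes were lower in every pair, against 17.7% of all probes, among them CRAT, CROT, ECI1, ECI2, DECR1 and CAT. In all 4 pairs the control lay at the first position and the day 4 array at the second, so position and group cannot be told apart within them. None of the 30 passed on day 4 when array position was a covariate or when only the groups compared entered the fit, and 2 passed without control replicate 1 or 2. With position as a covariate the difference of CROT was -0.28 and that of CRAT -0.32, that of ECI2 after 7.4 Gy was -0.57, while ACSL3 (-0.51), ECI1 (-0.54), DECR1 (-0.52) and CAT (-0.62) moved by less than 1.5 times.

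**Figure D3:**
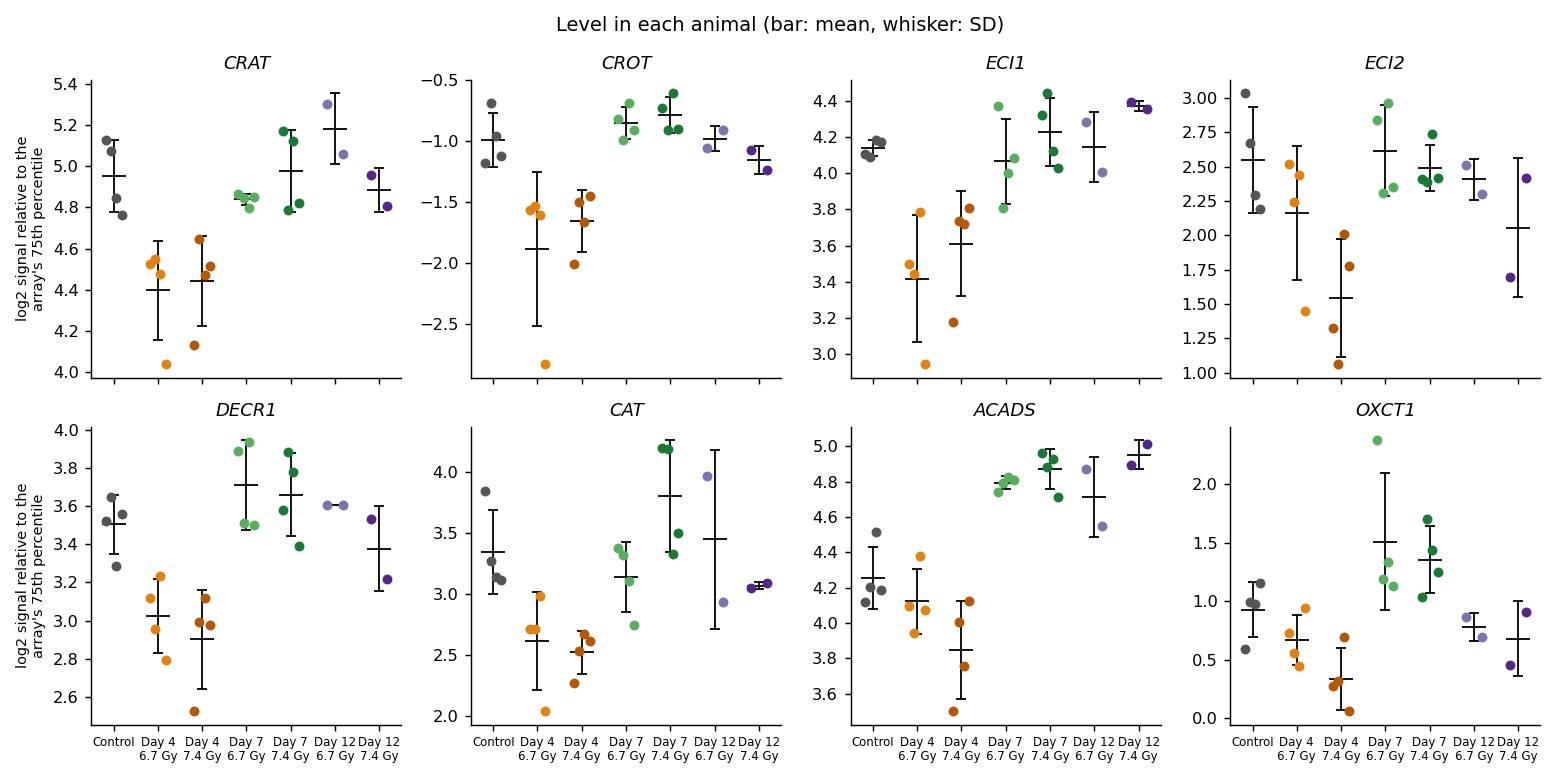
Level of CRAT, CROT, ECI1, ECI2, DECR1, CAT, ACADS and OXCT1 in each animal, as log2 signal relative to the array's 75th percentile, with the group mean (bar) and SD (whisker). The animals of day 4 lie below every control in CRAT, CROT, ECI1, DECR1 and CAT, and the animals of day 7 lie above every control in ACADS.

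On day 7 the members as a whole sat slightly above the controls, and ACADS was the single gene past the test by its reported probe. By direction 25 of 30 were higher in the mean of both doses, against 47% of all probes, with a median difference of 0.15 (0.06 without control replicate 4) against -0.02, and 1 passed as higher, against 0.363% of all probes. The 3 activating synthetases were among those lower, by 0.22 to 0.59, without passing. The second probe of ACSL4, a synthetase that prefers arachidonic acid, did pass as lower (-0.94, adjusted p = 0.00975), where 0.967% of all probes passed as lower. ACADS, the short-chain acyl-CoA dehydrogenase, was at 4.12, 4.20, 4.51 and 4.18 in the controls, 4.10, 3.94, 4.38 and 4.07 on day 4 after 6.7 Gy and 3.50, 4.01, 3.76 and 4.12 after 7.4 Gy. On day 7 it was at 4.74, 4.79, 4.82 and 4.81 after 6.7 Gy and 4.96, 4.88, 4.93 and 4.71 after 7.4 Gy, and on day 12 at 4.87, 4.55, 4.89 and 5.01. All 12 later animals lay above all 4 controls. Animals lay above every control in 1 of 30 members on day 7, against 1.38% of all probes, and in 2 of 30 on day 12, against 3.07%. The difference on day 7 was 0.58 ± 0.12 (1.49-fold, adjusted p = 0.0125), and on day 12 it was also 0.58 but did not pass (adjusted p = 0.0566).

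By dose, ACADS passed on day 7 after 7.4 Gy (0.62 ± 0.13, adjusted p = 0.0268, against 0.258% of probes higher). After 6.7 Gy none of the members passed on day 7, by limma or by limma with trend and robust settings, against 0.449% of probes, and 4 of 30 (13.3%) had an unadjusted p below 0.05, against 9.36% of probes. Within slides, ACADS was among 5 of 30 genes higher in every one of 6 pairs of day 7 and control arrays, against 7.83% of probes, and ACSL3 was lower in every pair, 1 of 30 against 6.96%. The 6 pairs share 4 control arrays. For the mean of both doses the adjusted call was lost without control replicate 1 or 4 and with the slide as a block. After 7.4 Gy it was lost with only the groups compared in the fit (adjusted p = 0.14), with the slide as a block (adjusted p = 0.121), with the methods' t-test after Benjamini-Hochberg adjustment (0.182) and without control replicate 1, 2 or 4 or replicate 1, 2 or 3 of 7.4 Gy.

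On day 12, with 2 animals at each dose, no member passed against the controls after 6.7 Gy (0.155% of probes passed), after 7.4 Gy (0.0499%) or in the mean of both (0.523%). The members with an unadjusted p below 0.05 numbered 3, 3 and 5 (10%, 10% and 16.7% of 30, against 8.98%, 8.13% and 9.47% of probes), and limma with trend and robust settings called 0, 0 and 1. The members' median difference was 0.09 (0.02 without control replicate 4) against 0.03 for all probes. ACSL1, a long-chain synthetase whose probe was dim, was well above background on 0 of 2 arrays after 6.7 Gy and 1 of 2 after 7.4 Gy on day 12, against 4 of 4 control arrays, and did not pass (adjusted p = 0.354).

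The clearest contrast ran between the irradiated groups: 18 of 30 members were higher on day 7 than on day 4, none was lower past the test by its reported probe, and 7.63% of all probes passed as higher and 5.56% as lower. By direction 26 of 30 were higher, against 56.8% of probes, and the median difference was 0.49 against 0.05. In 7 members, against 1.12% of probes, the lowest of 8 animals on day 7 lay above the highest of 8 on day 4: CRAT, CROT, ACADS, HADH, ECI1, DECR1 and OXCT1. The comparison does not involve the controls. It shares the animals of day 4 with the preceding comparisons, so the 2 sets of values are not independent.

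The rise took in most roles of the pathway. In the carnitine step CROT was 1.93-fold higher (0.95 ± 0.15, adjusted p = 0.000725) and CRAT 1.40-fold (0.49 ± 0.10, adjusted p = 0.00346), while CPT1A, CPT2 and SLC25A20 did not pass. Both dehydrogenases passed, ACADS by 0.85 ± 0.10 (adjusted p = 3.6e-05) and the medium-chain enzyme ACADM by 0.50 ± 0.16 (adjusted p = 0.0446). The 3 synthetases did not pass, with differences of -0.48 (ACSL4) to 0.22 (ACSL3), but the second ACSL4 probe fell by 0.66 (adjusted p = 0.00743). The call of ACADM was lost in 12 of 16 fits with 1 animal left out, and without both low animals of day 4 its difference was 0.35 (adjusted p = 0.124).

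Of the 7 spiral and auxiliary enzymes, 5 rose. HADH, which oxidizes short hydroxyacyl chains, ran from 1.38 to 2.71 (median 2.37) in 8 animals of day 4 and from 2.72 to 3.29 (median 3.10) in 8 of day 7, against 2.42 to 2.91 in the controls. It rose by 0.84 ± 0.17 (adjusted p = 0.00376), and the groups of day 4 and day 7 met without overlap. DECR1 rose by 0.72, ECI2 by 0.70, ECI1 by 0.63 and HADHB, the thiolase subunit of the trifunctional protein, by 0.44. The call of ECI2 held in 28 of 29 settings, with a difference as low as 0.55. The call of HADHB was lost in 7 of 16 fits with 1 animal left out, and without both low animals of day 4 its adjusted p was 0.0839. All 3 electron transfer genes rose: ETFA by 0.63, the other flavoprotein subunit ETFB by 0.44, and ETFDH, which passes the electrons to ubiquinone, by 0.53. The call of ETFA was lost in 5 of 16 fits with 1 animal left out and without both low animals of day 4 (adjusted p = 0.0934).

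Both ketone genes rose as well. OXCT1, the limiting enzyme of ketone use outside the liver, was at 0.59, 0.99, 0.97 and 1.15 in the controls, 0.73, 0.56, 0.45 and 0.94 on day 4 after 6.7 Gy and 0.28, 0.32, 0.70 and 0.06 after 7.4 Gy. On day 7 it was at 2.38, 1.19, 1.34 and 1.13 after 6.7 Gy and 1.04, 1.71, 1.44 and 1.25 after 7.4 Gy, and on day 12 at 0.87, 0.69, 0.45 and 0.91. It was 1.91-fold higher on day 7 than on day 4 (0.93 ± 0.16, adjusted p = 0.0013), and all animals of day 12 lay below all animals of day 7. ACAT1, which splits acetoacetyl-CoA, ran from 1.22 to 1.99 on day 4 and 1.79 to 2.33 on day 7 and rose by 0.45 ± 0.09 (adjusted p = 0.00341).

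In the peroxisome, PEX11A rose by 0.91 ± 0.26, CAT by 0.90 ± 0.18 and EHHADH, the bifunctional hydratase and dehydrogenase, by 0.81 ± 0.18, with adjusted p of 0.0251, 0.00312 and 0.00744. The call of PEX11A held in 26 of 29 settings, and its difference went as low as 0.52 across them. EHHADH ran from 0.91 to 1.75 on day 4, 1.61 to 2.73 on day 7 and 1.51 to 1.93 in the controls. The thiolase ACAA1, the oxidase ACOX3 and HSD17B4 did not pass by their reported probes. PPARA rose by 0.58 ± 0.14 (adjusted p = 0.0117), and PPARGC1A had the same difference with a wider error (0.58 ± 0.20, adjusted p = 0.0586), which was 0.37 (adjusted p = 0.0481) without replicate 4 of 6.7 Gy on day 4.

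Within slides, the members' median difference between a day 7 and a day 4 array was above 0 in all 10 pairs, from 0.28 to 0.79, and 15 of 30 genes were higher in every pair, against 5.88% of probes. The 10 pairs come from 8 arrays of each day. Day 7 and day 4 arrays lay at different positions on the slides, so position and day cannot be told apart here. With the lowest day 4 animal of each dose left out, a choice made after seeing the data, 14 members passed.

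**Figure D4:**
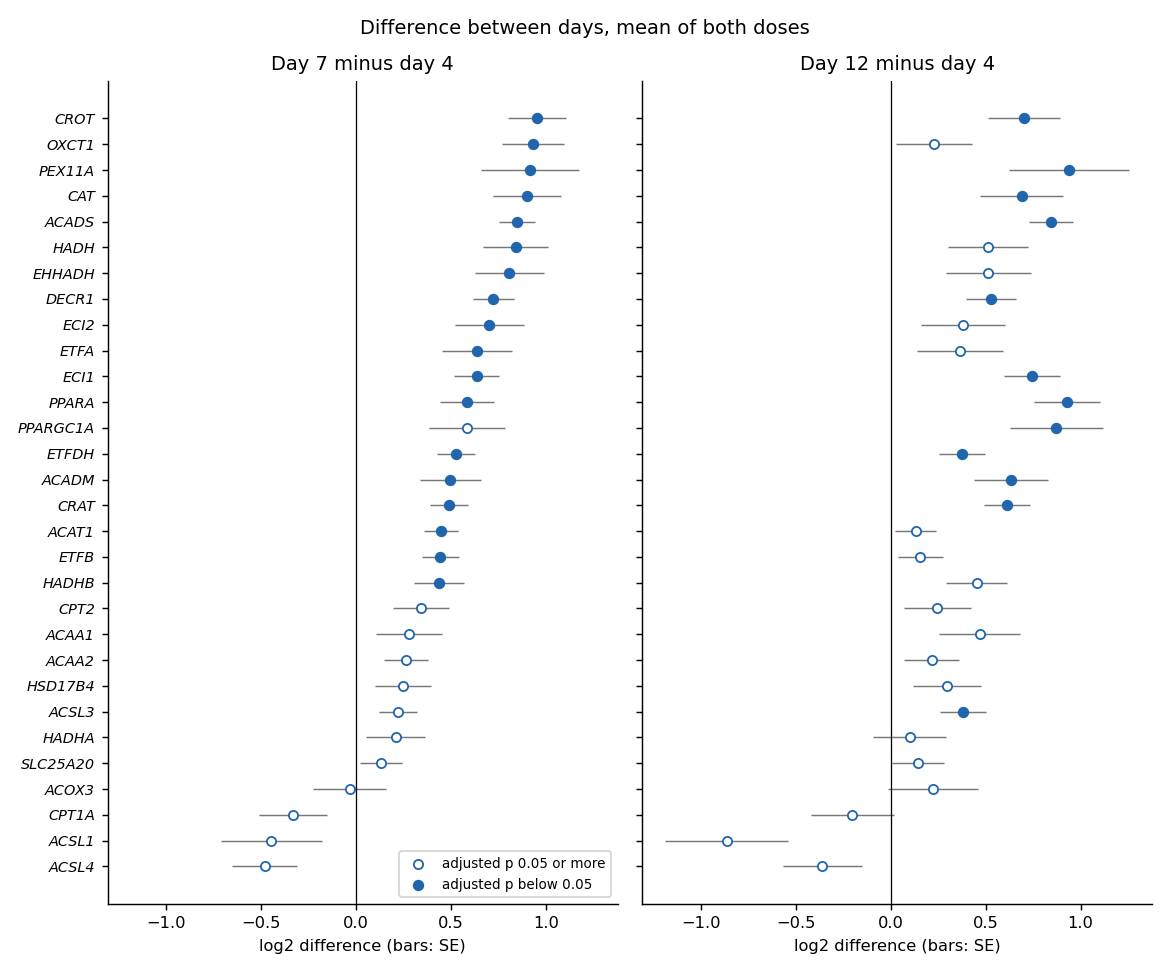
Log2 difference of each of the 30 members between day 7 and day 4 and between day 12 and day 4, in the mean of both doses, with lines of 1 SE to each side; filled points passed the test. On day 7, 18 members passed as higher than on day 4, and on day 12, 12 did.

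On day 12, 12 members were higher than on day 4 and none lower past the test by its reported probe, where 10.7% of all probes passed as higher. The second ACSL4 probe fell by 0.71 (adjusted p = 0.014). In 7 of the 30, against 5.04% of probes, the 4 animals of day 12 all lay above the 8 of day 4. Among the members that rose, the largest differences were those of PEX11A (0.94 ± 0.32, adjusted p = 0.0460), PPARA (0.93 ± 0.17, adjusted p = 0.00229), PPARGC1A (0.87 ± 0.24, adjusted p = 0.0208) and ACADS (0.85 ± 0.12, adjusted p = 0.000254). ECI1, CROT, CAT, ACADM, CRAT, DECR1, ACSL3 and ETFDH rose by 0.38 to 0.74. The calls of PEX11A, ACSL3 and ETFDH held in 12 of 25 settings each, that of CAT in 15 and that of ACADM in 16. The PEX11A difference went as low as 0.55 across these settings. The CAT difference was 0.43 without replicate 1 of 6.7 Gy on day 12. The count fell to 4 without replicate 1 of 7.4 Gy on day 12, to 6 without replicate 2 of 6.7 Gy on day 12 and to 7 without replicate 1 of 7.4 Gy on day 4. The arrays of day 12 lay at the fourth position of a slide and those of day 4 at the first or second, so position and day cannot be told apart.

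No member passed between day 12 and day 7, by limma or by limma with trend and robust settings, against 0.288% of probes. An unadjusted p below 0.05 was reached by 3 of 30 (10%), fewer than the 14.4% of probes. These 3, named after their values were seen, were OXCT1 (-0.70 ± 0.20, adjusted p = 0.127), ACAT1 (-0.32 ± 0.11, adjusted p = 0.206) and ETFB (-0.29 ± 0.12, adjusted p = 0.281), all lower on day 12. In OXCT1 alone, 1 of 30 against 1.3% of probes, every animal of day 12 lay below every animal of day 7.

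Between 7.4 and 6.7 Gy no member passed on day 4 (0% of probes passed), day 7 (0%) or day 12 (0.00277%), by limma or with trend and robust settings, and 2, 2 and 1 had an unadjusted p below 0.05. These shares (6.67%, 6.67% and 3.33% of 30) stood against 5.54%, 4.02% and 6.25% of probes. These genes were ECI2 (-0.62 ± 0.26) and ACAT1 (-0.37 ± 0.13) on day 4, SLC25A20 (0.53 ± 0.16) and CAT (0.66 ± 0.25) on day 7 and ACAA1 (-0.87 ± 0.34) on day 12. The members' median difference between doses was -0.09, 0.06 and -0.10 on the 3 days. With 1 animal left out it ran from -0.22 (without replicate 4 of 6.7 Gy) to 0.0014 (without replicate 1 of 7.4 Gy) on day 4, from 0.04 to 0.12 on day 7 and from -0.17 to -0.04 on day 12. On day 4 the 4 animals of 7.4 Gy all lay below the 4 of 6.7 Gy for ACAT1, ACAA2 and SLC25A20, which is 3 of 30 against 0.823% of probes, and on day 7 all above them for SLC25A20, 1 of 30 against 1.78% of probes. On day 12, with 2 animals a dose, 7 of 30 were higher without overlap after 7.4 Gy, against 14.7% of probes, and 8 lower, against 26%.

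Genes of the same pathways outside the 30 members were counted on day 4 as well, where 4.58% of all probes passed as higher and 4.66% as lower. Of 18 other fatty acid oxidation and ketone genes, 1 rose (ACAD9) and 2 fell (MUT and ACOT2), with a median of -0.33. Of 27 other peroxisome genes, 1 fell (PIPOX), near the share of all probes, with a median of -0.22. The mean of the list relative to the controls ran from -0.56 to -0.07 in the 8 animals of day 4 for the former and from -0.66 to -0.07 for the latter. Of 12 PPAR targets, 2 rose (PDK4 and TXNIP) and 1 fell (FABP1), with a median of -0.15. None of 9 other regulators passed, and of 9 genes that follow mitochondrial mass 2 fell, COX4I1 by 0.46 and CYCS by 0.67, with a median of 0.15. ACAD9, MUT, ACOT2, COX4I1 and CYCS, changed under 2-fold, are named after their values were seen.

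PDK4, the kinase that turns off pyruvate dehydrogenase, was at -0.45, -0.38, 0.24 and -0.90 in the controls, 0.83, 2.33, 1.33 and 0.70 on day 4 after 6.7 Gy and 1.66, 1.84, 1.20 and 1.19 after 7.4 Gy. It was 3.38-fold higher on day 4 (1.76 ± 0.32, adjusted p = 0.0033). TXNIP, which restrains glucose uptake, rose by 1.08 ± 0.22 on day 4 and fell by 0.99 from day 4 to day 7. No animal of day 4 overlapped the controls for either gene. FABP1, the fatty acid binding protein of enterocytes, was at 6.84, 6.55, 6.39 and 5.93 in the controls, 5.31, 5.38, 5.59 and 5.77 on day 4 after 6.7 Gy and 4.67, 5.42, 5.10 and 5.65 after 7.4 Gy. It fell by 1.07 ± 0.24 (adjusted p = 0.0118) and was higher by 0.78 on day 7 than on day 4. PIPOX, a peroxisomal amine oxidase, fell by 1.11 ± 0.26 on day 4 (adjusted p = 0.0129), with overlap of 1 control, and rose by 1.21 from day 4 to day 7 and by 1.60 from day 4 to day 12.

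**Figure D5:**
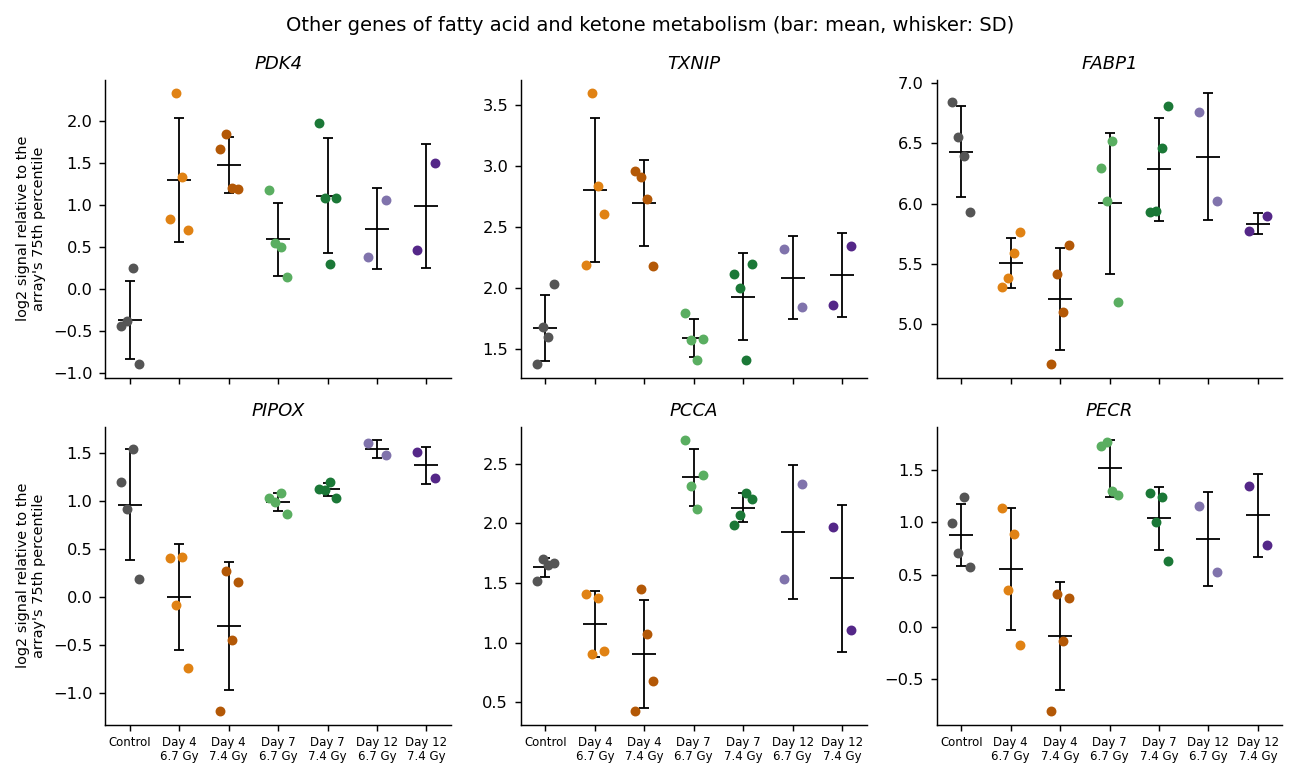
Level of PDK4, TXNIP, FABP1, PIPOX, PCCA and PECR in each animal, as log2 signal relative to the array's 75th percentile, with the group mean (bar) and SD (whisker). PDK4 and TXNIP lie above every control on day 4, and FABP1 lies below every control.

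From day 4 to day 7 the other lists were counted in the same way, where 7.63% of all probes rose and 5.56% fell. Of the 18 other fatty acid oxidation and ketone genes 8 rose and none fell, with a median of 0.47, and of the 27 other peroxisome genes 7 rose and none fell, with a median of 0.27. Of the 12 PPAR targets 2 rose and 1 fell (TXNIP), with a median of -0.17. The largest were PCCA, a subunit of propionyl-CoA carboxylase (1.23, adjusted p = 0.000108), PIPOX, the synthetase ACSF2 (1.13, and 1.32 from day 4 to day 12) and PECR, a peroxisomal enoyl-CoA reductase (1.05). The call of ACSF2 held in 23 of 29 settings to day 7 and 18 of 25 to day 12. Its difference went as low as 0.59 and 0.78 across them. Among other regulators ESRRG, an orphan nuclear receptor of oxidative tissue, rose by 1.20 (by 1.28 to day 12), and of the mitochondrial mass genes COX4I1 alone rose. Against the controls on day 7, PCCB (0.47) and PXMP4 (0.49) passed.

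Markers of the cells in the wall also changed on day 4, and their part in the members' differences was not tested. Of 7 epithelial markers 5 fell on day 4 (EPCAM, KRT8, KRT20, CLDN3 and LGALS4), with a median of -0.60. Their mean level relative to the controls ran from -0.18 to 0.26 in the controls, -0.80 to -0.15 on day 4, -0.30 to 0.09 on day 7 and -0.20 to 0.11 on day 12. From day 4 to day 7, 3 of the 7 rose, EPCAM by 0.37, CLDN3 by 0.81 and LGALS4 by 0.67. To day 12 the same 3 rose by 0.48, 0.87 and 0.51. Of 9 enterocyte markers 2 fell on day 4, VIL1 (-1.30) and FABP1, and the list mean ran from -0.62 to 0.39 in the controls, -1.50 to 0.58 on day 4, -0.33 to 0.49 on day 7 and -0.05 to 0.27 on day 12. The lowest enterocyte mean was that of replicate 4 of 6.7 Gy on day 4. Among the members, that animal was the lowest of day 4 for CRAT, CROT, ECI1, CAT, PPARGC1A, ACADM, ACAA1, EHHADH, HSD17B4 and PEX11A. It was the highest of day 4 for ACSL4, CPT1A, CPT2 and OXCT1.

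Of 4 goblet cell markers 2 fell on day 4, AGR2 (-1.37) and CLCA1 (-1.15), and the list mean ran from -0.22 to 0.20 in the controls and -1.19 to -0.46 on day 4. Of 6 fibroblast markers 2 rose in the mean of both doses, DCN (1.096) and LUM, and COL3A1 (1.01) rose after 7.4 Gy. The fibroblast mean ran from -0.36 to 0.15 in the controls, 0.19 to 1.38 on day 4, -0.27 to 0.74 on day 7 and -0.29 to 0.21 on day 12. From day 4 to day 7 DCN fell by 0.69 and LUM by 0.54. Of 5 enteric neuron and glia markers 2 rose, VIP (1.41) and ELAVL4 (1.14), and the list mean ran from -0.92 to 0.47 in the controls, 0.18 to 1.49 on day 4, -0.06 to 0.68 on day 7 and -0.05 to 0.39 on day 12. Markers of blood and immune cells changed too. Of 3 red blood cell markers 1 fell on day 4, the globin gene HBB, by 5.99 (adjusted p = 1.311e-06). It also differed from the controls by -7.21 on day 7 and -3.84 on day 12. The mean of the 3 ran from -0.39 to 0.37 in the controls, -2.45 to -1.40 on day 4, -2.80 to -2.09 on day 7 and -1.65 to -0.63 on day 12, with no overlap between the controls and any later day. HBB was the only 1 of the 3 past the test in any comparison, and its change carries most of this mean. Of 6 plasma cell markers 4 fell on day 4, among them MZB1 (-1.90) and TNFRSF17 (-1.66), and the list mean ran from -0.52 to 1.13 in the controls and -1.32 to -0.31 on day 4. TNFRSF17 was also lower on day 7 (-2.36), and PRDM1 fell by 1.31 from day 4 to day 7.

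Of 3 B cell markers 1 fell on day 4, CD79B (-1.27), which was also lower on day 7 (-1.04). The B cell mean ran from -0.68 to 0.96 in the controls, -1.95 to -0.81 on day 4, -1.84 to 0.43 on day 7 and -1.08 to -0.68 on day 12. Of 3 macrophage markers 1 rose on day 4, CD14 (0.82), and the mean ran from -0.11 to 0.13 in the controls, -0.25 to 0.93 on day 4, -0.50 to 0.04 on day 7 and -0.41 to 0.12 on day 12. Of 6 endothelial markers 1 rose on day 4, VWF (0.92), and the mean ran from -0.25 to 0.26 in the controls, -0.39 to 0.68 on day 4, -0.44 to 0.06 on day 7 and -0.61 to -0.11 on day 12. From day 4 to day 12 VWF fell by 1.34 and the fibroblast gene COL1A2 by 1.02. No marker of proliferating crypts (6 tested), smooth muscle (5), adipocytes (6) or T cells (7) passed on day 4. The smooth muscle mean ran from -1.64 to 0.55 in the controls, with a median of 0.54, so 1 control lay far below the others. It ran from 0.07 to 1.20 on day 4, 0.11 to 0.82 on day 7 and 0.21 to 0.54 on day 12. The adipocyte mean ran from -0.87 to 0.57 in the controls, -1.04 to 1.67 on day 4 and -1.39 to 0.34 on day 7. The T cell mean ran from -0.22 to 0.31 in the controls, -0.75 to -0.03 on day 4 and -0.97 to -0.45 on day 7, and on day 7 CD3D (-0.84), CD3E (-0.81), CD3G (-0.87) and CD2 (-0.77) passed as lower. From day 4 to day 7 CD3D and CD3G fell by 0.46 and 0.71, and the macrophage genes CSF1R and C1QA by 0.71 and 0.47. The proliferating crypt mean ran from -0.17 to 0.27 in the controls, -0.48 to 2.10 on day 4 and 0.03 to 1.28 on day 7, with none of its genes past the test on day 7.

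A second probe of the same gene gave like values for some members and different ones for others. The second CRAT probe fell by 0.73 on day 4 (adjusted p = 0.00766) and rose by 0.66 from day 4 to day 7. The second DECR1 probe differed by -0.46 on day 4 (adjusted p = 0.0569) and rose by 0.74 from day 4 to day 7, and the second CAT probe differed by -0.60 on day 4 (adjusted p = 0.11). From day 4 to day 7 the second probes of OXCT1 (0.29, adjusted p = 0.445), ETFA (0.31, adjusted p = 0.144), CAT (0.56, adjusted p = 0.0645) and PEX11A (0.75, adjusted p = 0.0643) did not pass, nor did that of ACSL3 on day 4 (-0.28, adjusted p = 0.288). The probes disagreed for ACAA1, with -0.72 (adjusted p = 0.0285) by the dimmer and -0.24 by the brighter probe on day 4. The dimmer ACAA1 probe rose by 0.52 (adjusted p = 0.0372) from day 4 to day 7 and by 0.83 (adjusted p = 0.00872) to day 12. For ACAT1 a dimmer probe fell by 0.97 where the brightest differed by -0.04 and the third by 0.04. That dimmer ACAT1 probe had a low mean level of -6.41, which limits what its values can show. For PPARGC1A the dimmer probe fell by 0.97 (adjusted p = 0.0446).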

How the data were processed

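Total RNA from the ileum of 24 Rhesus macaques was measured on 1-colour Agilent arrays, 1 per animal. Per the file headers, the authors obtained the deposited intensity values with Feature Extraction 11.0.1.1, which subtracted background and detrended within each array. The authors' deposited log2 values have each array's 75th percentile subtracted and each probe centred on its median; they were used for gene symbols and as an alternative. The deposited flags, of another kind, mark spots above background.

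From the intensity values, log2 signal minus the array's 75th percentile was computed, and 36108 of 43603 probes were tested, each flagged as well above background throughout a group or more. All 24 arrays entered 1 limma fit (limma 3.58.1, R 4.3.3) with a mean for each of 7 groups, and comparisons used moderated tests with Benjamini-Hochberg adjustment over all probes tested. The means of both doses weight the doses equally. The script was tested on simulated data. Samples were grouped by title, dose and day. For the last time point 1 protocol text gives another day than the title and the day field, which were followed. Full values are given for members that passed in at least 1 comparison with the controls and for PPARA and PPARGC1A, and listed genes are named where they passed with a fold of at least 2 in some comparison. Genes under that fold, and members named singly by an unadjusted p, were named after their values were seen. The members and lists were chosen with earlier results of these data known. Some listed genes are not reported here. All columns of per-sample values could be mapped. The number of arrays limits the precision. Same-numbered animals were not paired: over 62 pairs the correlation of deviations ran from -0.26 to 0.37, with 16 pairs over 0.1. The normexp alternative used median spot signals. The limma p-values set a difference of means against the spread between animals within groups, pooled over all 7 groups and moderated across probes.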

Additional observations from a re-analysis of the deposited data

Results flagged for a closer look

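In 11 of 150 groups of 4 animals a single animal stood apart from the other 3 for a member, where chance gives about 1 in 20. Replicate 4 of 6.7 Gy on day 4 was lowest for CRAT (4.04), CROT (-2.83) and PPARGC1A (-1.76). Replicate 1 of 7.4 Gy on day 4 was lowest for ECI1 (3.18) and PEX11A (-1.39), and replicate 2 was highest for ETFDH (1.28). On day 7 after 6.7 Gy, SLC25A20 was low in replicate 4 (0.94), while replicate 1 was high for OXCT1 (2.38) and low for ACOX3 (-5.70). On day 7 after 7.4 Gy, replicate 3 was low for CPT2 (1.21) and high for ECI2 (2.74).

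The difference between times passed the test for 18 members from day 4 to day 7: CROT (0.95), OXCT1 (0.93), PEX11A (0.91), CAT (0.90), ACADS (0.85), HADH (0.84), EHHADH (0.81), DECR1 (0.72), ECI2 (0.70), ETFA (0.63), ECI1 (0.63), PPARA (0.58), ETFDH (0.53), ACADM (0.50), CRAT (0.49), ACAT1 (0.45), ETFB (0.44) and HADHB (0.44). From day 4 to day 12 it passed for PEX11A (0.94), PPARA (0.93), PPARGC1A (0.87), ACADS (0.85), ECI1 (0.74), CROT (0.70), CAT (0.69), ACADM (0.63), CRAT (0.61), DECR1 (0.53), ACSL3 (0.38) and ETFDH (0.38).

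On day 12, both animals of 6.7 Gy lay above the control mean and both of 7.4 Gy below it for ACSL3 (7.4 minus 6.7 Gy, -0.40), ACAA1 (-0.87) and ACOX3 (-0.51). These opposite directions were not tested in themselves, and the difference between doses did not pass for any of the 3.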

How the results depend on the processing

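On day 7 against day 4, 15 to 23 of 30 members passed across the other fits that could be made, 14 to 21 with any 1 animal left out and 14 without both low animals of day 4. The counts against the controls depended on the fit, and the cause was not tested. With only the groups compared, 0 passed on day 4 after 6.7 Gy, 7.4 Gy or both, 0 on day 7 after 7.4 Gy, and 6 on day 12 against day 4. The methods' t-test with Benjamini-Hochberg adjustment gave 0, 0, 0, 0 and 7 for the same comparisons. Unadjusted it gave 7, 13 and 11 on day 4 (6.7 Gy, 7.4 Gy, both), 4, 8 and 8 on day 7, 1, 4 and 4 on day 12, 3, 2 and 2 between doses on days 4, 7 and 12, and 6 for day 12 against day 7. With array position as a covariate 0 passed on day 4 at either dose or both, and the PPARGC1A difference turned to 0.029. With the slide as a block 5 passed on day 4 after 7.4 Gy and 0 on day 7 after 7.4 Gy or both. The members' medians were then 0.093 on day 7 and -0.13 on day 12 after 7.4 Gy, and -0.19 between doses on day 12. Means of within-slide differences gave medians of -0.42 on day 4 after 6.7 Gy, 0.042 on day 7 after 7.4 Gy and 0.19 on day 12. Normexp gave 7 on day 4 after 7.4 Gy. Quantile normalization, probes above background on all arrays, and trend and robust moderation each gave 1 on day 12 (both doses), and the last gave 2 on day 7 after 7.4 Gy. The mean of a gene's probes gave 5 on day 4 after 7.4 Gy and 2 on day 7 (both). With the replicate number as a block, which does not pair these animals, 2 passed on day 7 after 7.4 Gy and 7 on day 12 against day 4. Without both low animals of day 4, chosen after seeing the data, 7 passed on day 12 against day 4.

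Without 1 animal, 0 to 3 passed on day 4 after 6.7 Gy (0 without control replicate 1, 2 or 3, and 1 without replicate 4 of that group) and 0 to 5 after 7.4 Gy (0 without control replicate 1 or 2 or replicate 1 of that group, 5 without control replicate 4). For both doses 2 to 8 passed on day 4. On day 7, 0 to 1 passed after 7.4 Gy (0 without control replicate 1, 2 or 4, or replicate 1 or 2 of that group) and 0 to 1 for both doses. On day 12, 0 to 1 passed (1 without control replicate 3), and 4 to 14 passed against day 4. The median between doses on day 12 ran from -0.17 to -0.041. For single genes under other settings, 796 values were unchanged, 126 no longer passed, 2 newly passed, 1 changed size and 1 reversed. Unchanged means the same direction and side of the threshold. For the means of within-slide differences, which have no test, it means the same direction and a value within 1 SD between animals. The dim probe of ACSL1 limits what its values can show.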
